A study of Danio rerio with 12 samples.

Results

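Hearts of tet2/tet3 double mutant (DM) zebrafish were compared with hearts of wild type (WT) zebrafish at 48 hours post fertilisation (hpf) by RNA sequencing. The comparison rests on 4 of the 12 libraries of the series, 2 from DM and 2 from WT hearts, numbered 1 and 3 in each group. DM animals carried inactivating mutations of both tet2 and tet3, while WT animals had the wild type sequence and, per the labels' protocols, were offspring of AB and TU fish. All animals were labelled with the strain background AB, were raised at 28.5°C and received no treatment. A pair of libraries from sibling hearts, a mix of WT animals and carriers heterozygous for tet2, tet3 or both, is given beside the results. It is a side reference in the comparison of DM with WT. It also entered the main fits, where all 6 heart libraries shared an estimate of spread, and so bore on which genes were called. Hearts were dissected by hand, and 1 ng of total RNA was amplified to cDNA before library construction. The labels do not say how many hearts a library holds, nor whether the libraries within each group are from different clutches, so p-values here reflect library-to-library spread that may be technical. Of 25680 genes in the count table, 16998 had enough counts to be tested. Throughout, a pair of counts is given in the order replicate 1, then replicate 3, and genes are described in detail where the counts scaled to library size (CPM) of the DM and WT libraries did not overlap. The genes tet1 to tet3, a few paralogs and a few defining genes of the heart lists are given whatever they showed.

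TET proteins are dioxygenases that oxidise 5-methylcytosine in DNA, a step that can lead to demethylation, and in zebrafish tet2 and tet3 together are needed for blood stem cells to emerge from the aorta. At this stage the zebrafish heart is a looped tube with an atrium and a ventricle. It consists of beating myocardium, an inner endocardium that begins to form valve cushions at the atrioventricular canal, and a hyaluronan-rich matrix between them. Cells of the proepicardium, a cluster of mesothelial cells beside the heart, then begin to settle on the myocardium as epicardium. Blood passes through the heart, and pharyngeal, foregut and pericardial tissue lie against it, so a dissected heart can carry RNA of these neighbours. In bulk samples such as these, fewer cells of a type and less RNA per cell cannot be told apart.

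The 6 heart libraries held 3289161 to 5963478 counts and 20115 to 21853 detected genes, and 3 counts, the most that a count of 0 allows, corresponded to 0.493 to 0.839 CPM. Replicates of a group differed far more than sampling noise, with a chi-square per degree of freedom of 61.9 between the WT libraries and 30.9 between the DM libraries, and the first principal component (33.1% of the variance) did not separate the groups. On the second (23.8%) both WT libraries were positive (19.4 and 48.3) and both DM libraries negative (−68.5 and −30.5), with sibling libraries at 57.3 and −26.1. The markers bore out the label heart, with 3.11% to 4.95% of counts from 8 cardiomyocyte markers in the WT and DM libraries, and with endothelial markers at 0.110% to 0.267%. Cardiomyocyte markers took 1.41% in sibling replicate 1, the lowest share of the heart libraries, and 3.32% in sibling replicate 3. Markers of other tissues differed between libraries. The 8 skin markers took 0.0183% and 0.0488% of the counts in WT, 0.192% and 0.139% in siblings, then 0.199% and 0.256% in DM. Markers of pharyngeal endoderm and mesenchyme took 0.0153% and 0.00217% in WT, 0.0289% and 0.0159% in siblings, then 0.000956% and 0.000824% in DM. Lens markers stood at 0.121% in DM replicate 1 and 0.243% in sibling replicate 1, against at most 0.00376% in the other heart libraries, and skeletal muscle markers at 0.889% in DM replicate 1, against at most 0.158% elsewhere.

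**Figure D1:**
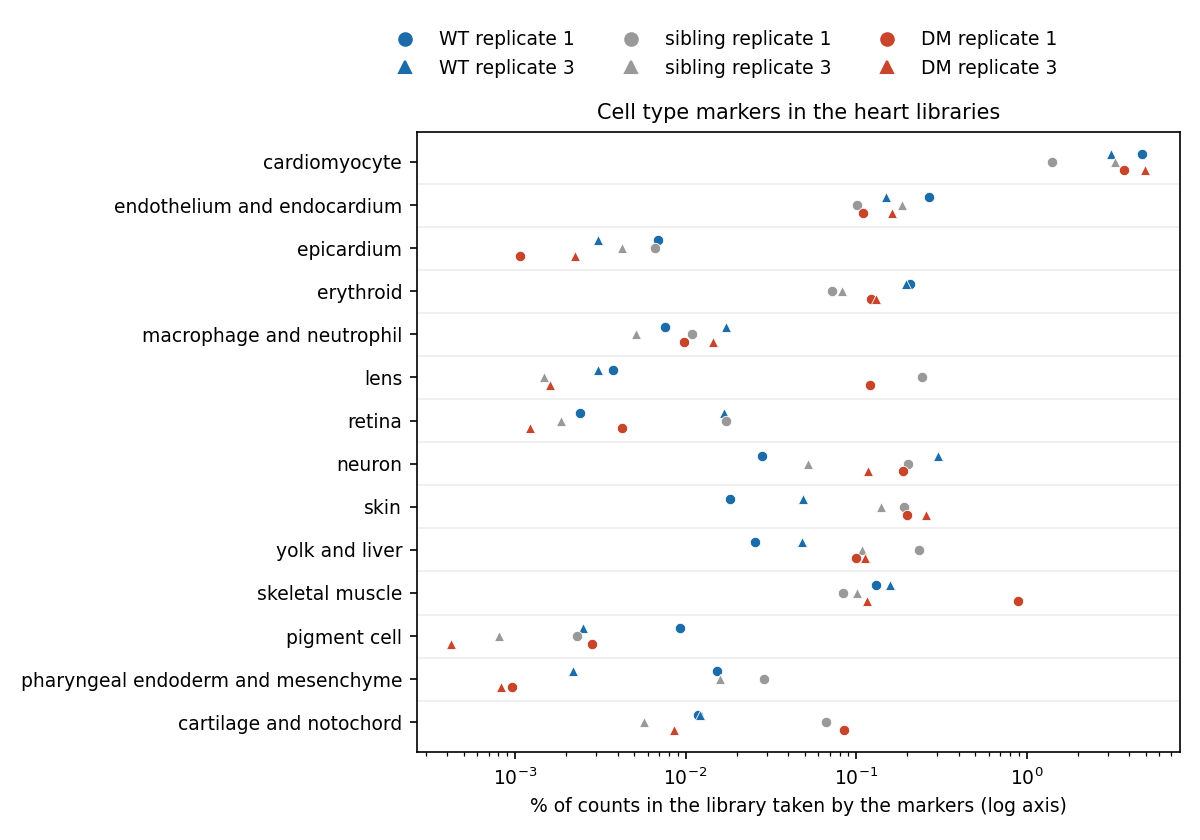
Share of the counts of each heart library taken by markers of 14 cell types (x axis, percent, log scale), with circles for replicate 1 and triangles for replicate 3. The skin markers of both DM libraries (0.199% and 0.256%) lie above those of both WT libraries, and the lens markers are high in DM replicate 1 and sibling replicate 1 alone.

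Transcripts of the mutated genes were present in the mutant hearts. tet2 (ENSDARG00000076928, chromosome 1, 25662646 to 25693594, build GRCz10) had 839 and 1810 counts in WT, 824 and 749 in siblings, then 755 and 709 in DM, a log2 fold change of −0.96 ± 0.48 (SE, n = 2 against 2, adjusted p = 0.688 by edgeR's quasi-likelihood test). Both DM libraries lay below both WT libraries, but WT replicate 3 alone was high. tet3 (ENSDARG00000062646, chromosome 5, 13809699 to 13826742) had 574 and 492 counts in WT, 392 and 307 in siblings, then 600 and 504 in DM, and the groups overlapped. For tet1 (ENSDARG00000075230, chromosome 13, 18066195 to 18165134), the third family member, the counts were 267 and 384 in WT, 202 and 200 in siblings, then 245 and 206 in DM. The levels do not check the genotype labels, since an inactivating mutation need not remove the transcript.

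No gene passed an adjusted p of 0.05 in edgeR's quasi-likelihood test, and 1254 of 16998 genes (7.38%) had an unadjusted p below 0.05, 720 higher (4.24%) and 534 lower (3.14%) in DM. DESeq2, the alternative test, called 118 of the 15002 genes for which it gave an adjusted p (0.787%), 49 of them higher in DM (0.327%) and 69 lower (0.46%). The sibling libraries were in both fits. Without them DESeq2 called 241 genes (146 higher, 95 lower), with 107 of the 118 among them. By the adjusted p in the authors' deposited table, 289 of 14124 genes (2.05%) passed 0.05, of which 160 were higher (1.13%) and 129 lower (0.913%). Of these, 115 were among the 118 DESeq2 calls, in the same direction. All 118 had groups that did not overlap, as 6571 of 16998 genes (38.7%) had. An exact permutation test of 2 against 2 libraries cannot give a two-sided p below 0.333. A wider description counts genes whose DM and WT libraries did not overlap, whose mean log2 CPM differed by at least 1, and whose mean level was at least 5 CPM, here called apart by 2-fold. These were 1474 genes (8.67% of those tested), 880 higher in DM (5.18%) and 594 lower (3.49%). Without DM replicate 1 there were 720 higher and 752 lower. In what follows, "called" refers to DESeq2, and log2 fold changes with their SE come from edgeR, which called none of these genes. List members apart by 2-fold are given with their percent of the tested members in brackets. The shares to set beside them are those of all genes, 5.18% higher, 3.49% lower and 0.787% called. Of the 13078 genes with a mean of at least 5 CPM, 11.3% were apart by 2-fold.

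With each of the 4 WT and DM libraries left out in turn, DESeq2 called 29 to 130 genes. The balance of directions was not stable, with 8 higher and 21 lower without WT replicate 1, and 38 higher and 13 lower without DM replicate 3. All 118 genes kept the sign of their fold change in the 4 fits. Their groups did not overlap, so leaving out a library could hardly have changed it. Many were called in none of the fits, shox2, xirp2a, TGFBR2, col12a1a, foxa3, cahz, tfr1a, rhd, adamts1, gtf3ab, chd9, kdm6bb, tyrp1a and ndrg1a among them. Called in all 4 were 9 genes, 7 lower in DM (BMP10 (1 of many), tnni4a, cx41.8, fabp11a, tmem88a, rspo2 and hoxb8a) and 2 higher (krtt1c19e and cyt1). Every other call was lost in at least 1 of the 4 fits.

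**Figure D2:**
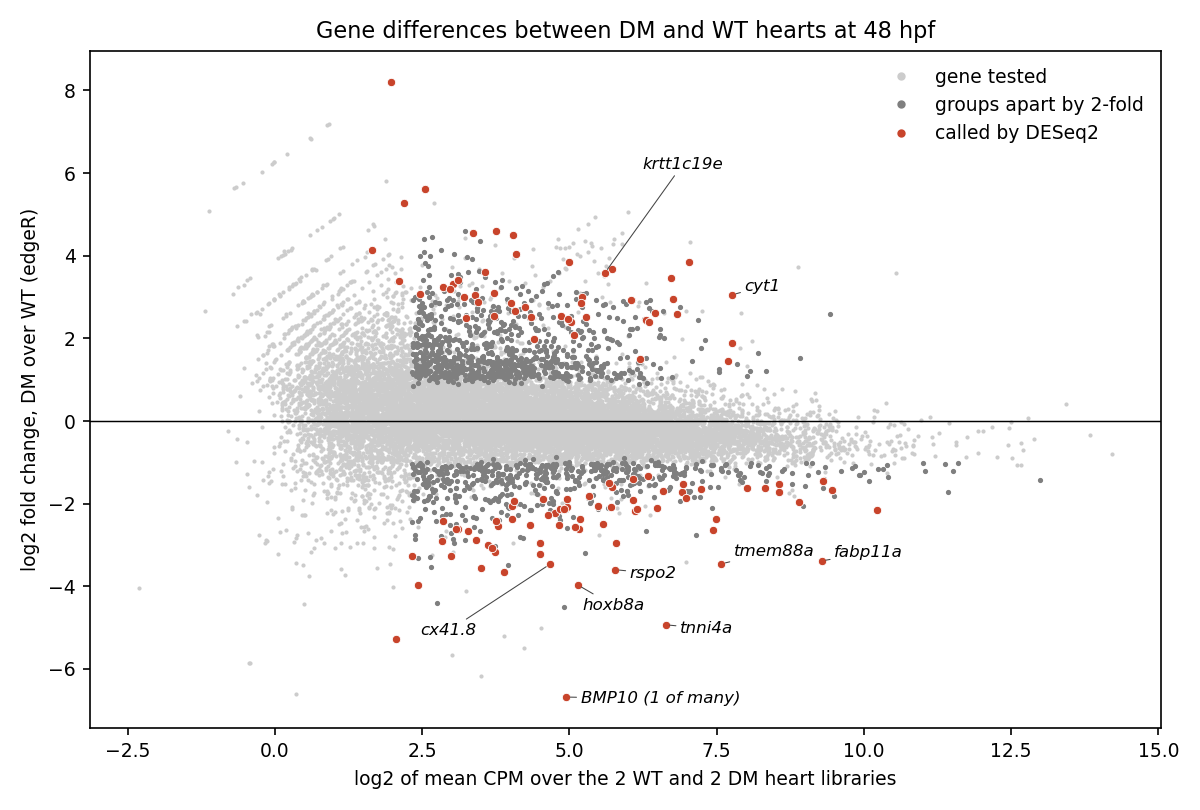
Each point is a tested gene, with the log2 of its mean CPM over the WT and DM libraries on the x axis and its log2 fold change, DM over WT, on the y axis. The 9 genes that DESeq2 called in all 4 leave-one-out fits are named, with BMP10 (1 of many) lowest at −6.68.

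Among secreted heart ligands and genes of the myocardium, a BMP10 gene stood first, and of the 69 genes called lower it had the lowest log2 fold change. BMP10 is a ligand of the BMP family made by cardiomyocytes, and in mice it is needed for trabecular growth. The gene listed as BMP10 (1 of many) (ENSDARG00000045632, chromosome 10, 561903 to 567303) had 394 and 204 counts in WT hearts, 53 and 166 in sibling hearts and 4 and 2 in DM hearts. It was close to the detection limit in both DM libraries and well above it in all the others. Its mean level was 61.0 ± 24 CPM (SD, n = 2) in WT and 0.558 ± 0.14 CPM in DM, a log2 fold change of −6.68 ± 0.73, with a DESeq2 adjusted p of 5.95e-11 and 0.000137 at most when a library was left out. The paralog listed as bmp10 (ENSDARG00000061769, chromosome 5, 20707335 to 20710499) had 155 and 57 counts in WT, 12 and 58 in siblings, then 76 and 65 in DM. Its groups overlapped, and its fold change was −0.65 ± 0.70.

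Muscle genes differed gene by gene. tnni4a (ENSDARG00000099870, chromosome 4, 7382540 to 7397683), which encodes a troponin I, the inhibitory subunit of the thin filament, had 1392 and 505 counts in WT, 447 and 353 in siblings, then 61 and 10 in DM. The log2 fold change was −4.93 ± 0.83 (DESeq2 adjusted p = 3.45e-08), and no sibling library came near the DM libraries. Myoglobin, mb, the oxygen-binding protein of muscle, had 377 and 197 counts in WT, 84 and 107 in siblings, then 84 and 26 in DM (−2.56 ± 0.54, adjusted p = 0.00519 by DESeq2). xirp2a, whose product is a Xin repeat protein of intercalated discs and myosepta, had 1995 and 1808 counts in WT, 423 and 953 in siblings, then 838 and 512 in DM, and was called as well (−1.62 ± 0.39, adjusted p = 0.0247 by DESeq2). Sibling libraries lay between the groups for mb and nearer DM for xirp2a. srl, which encodes sarcalumenin of the sarcoplasmic reticulum, had 13415 and 5862 counts in WT, 1543 and 3437 in siblings, then 2669 and 1933 in DM (adjusted p = 0.00793 by DESeq2). tnni4a and srl are on the skeletal muscle list, of whose 73 tested genes 3 were called lower and none higher (the other was prdm1a). On that list 4 were apart by 2-fold in the lower (5.48%) and 1 in the higher direction (1.37%). Its median was 0.26, or −1.02 without DM replicate 1. Of the 54 tested cardiomyocyte contractile and calcium genes, 2 were called lower and none higher. In the lower direction 8 were apart by 2-fold (14.8%), and in the higher direction 2 (3.7%). The median log2 fold change was −0.38 against 0.02 for all genes tested. Without WT replicate 1 this median was 0.22, so its sign rested on that library. With DESeq2 size factors it was −0.416, and with upper quartile factors −0.329. The TMM factors were lower in both WT than in both DM libraries. They therefore set fold changes of all genes and lists lower than raw shares of counts would. On raw shares the cardiomyocyte markers overlapped, at 4.77% and 3.11% in WT and 3.73% and 4.95% in DM. nppa, which encodes atrial natriuretic peptide, had 36252 and 20875 counts in WT and 30271 and 28480 in DM, so the groups overlapped.

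The connexin gene cx41.8 (ENSDARG00000069450, chromosome 1, 46723502 to 46740221) encodes a gap junction protein related to mammalian connexin 40, which couples atrial myocytes, and is known in zebrafish for the leopard pigment pattern. It had 270 and 184 counts in WT, 34 and 94 in siblings, then 27 and 17 in DM. Its mean level was 46.6 ± 9.6 CPM in WT and 4.17 ± 0.39 CPM in DM (log2 fold change −3.47 ± 0.53, DESeq2 adjusted p = 1.25e-05), with sibling replicate 1 nearer DM and sibling replicate 3 nearer WT. shox2, a homeobox gene of the pacemaker region at the inflow of the heart, had 64 and 55 counts in WT, 33 and 35 in siblings, then 15 and 9 in DM (−2.42 ± 0.52, DESeq2 adjusted p = 0.0419). Among 19 tested conduction and ion channel genes shox2 was the single call, and 3 were apart by 2-fold, all lower (15.8%). Of 46 cardiac transcription factors, 1 was called lower, prdm1a. In the lower direction 9 were apart by 2-fold (19.6%), and in the higher direction 2 (4.35%). Their median was −0.36 (−0.14 without WT replicate 1, −0.58 without DM replicate 3). prdm1a, a zinc finger repressor of several embryonic lineages, had 118 and 264 counts in WT, 154 and 126 in siblings, then 29 and 24 in DM (−2.96 ± 0.57, DESeq2 adjusted p = 0.00142). heyl, a target of Notch signalling, had 78 and 19 counts in WT, 19 and 32 in siblings, then 6 and 4 in DM, and narrowly missed the threshold (DESeq2 adjusted p = 0.0561). gata4, a core factor of heart and foregut, had 1723 and 920 counts in WT, 229 and 739 in siblings, then 621 and 577 in DM (DESeq2 adjusted p = 0.426), lower in both DM libraries without a call.

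**Figure D3:**
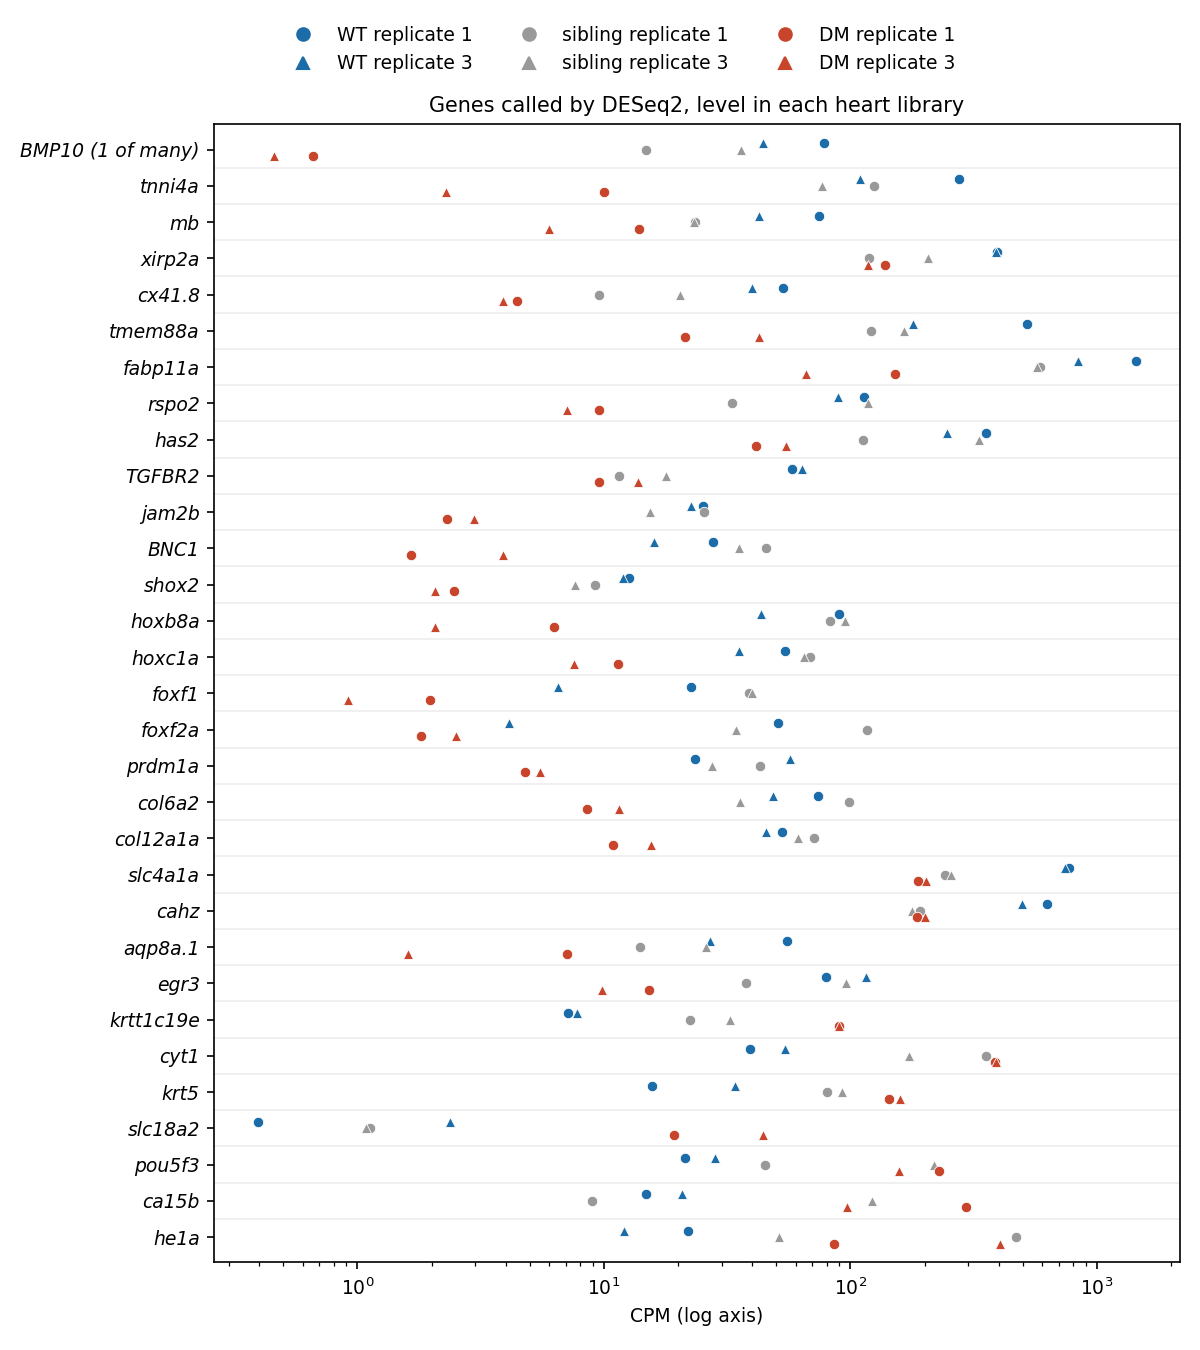
Level of 31 genes called by DESeq2 in each heart library (x axis, CPM, log scale), grouped from heart genes at the top to keratin, maternal and hatching genes at the bottom, with circles for replicate 1 and triangles for replicate 3. In all 31 the red DM points lie on one side of the blue WT points, while grey sibling points lie near WT for hoxb8a, foxf1 and col12a1a and near DM for TGFBR2, slc4a1a and cyt1.

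Endocardial, endothelial and matrix genes were lower in several places. tmem88a (ENSDARG00000056920, chromosome 10, 22613718 to 22810208) encodes a membrane protein that inhibits Wnt signalling and acts in early heart and blood progenitors of zebrafish. It had 2640 and 832 counts in WT, 431 and 759 in siblings, then 130 and 186 in DM (log2 fold change −3.46 ± 0.64, DESeq2 adjusted p = 3.1e-05). The annotated span of tmem88a contains the whole of kdm6bb, which encodes a histone demethylase and had 4575 and 4353 counts in WT, 1812 and 2073 in siblings, then 2118 and 1442 in DM (−1.44 ± 0.35, DESeq2 adjusted p = 0.00762). How reads in the 36601 shared bases were assigned is not given in the sources used here. has2, the hyaluronan synthase that makes the cardiac jelly of the valve cushions, had 1790 and 1138 counts in WT, 402 and 1530 in siblings, then 252 and 239 in DM. Both DM libraries were low, and sibling replicate 3 was as high as WT (−2.64 ± 0.57, DESeq2 adjusted p = 0.00255). lyve1a, a hyaluronan receptor gene of lymphatic and venous endothelium, had 859 and 562 counts in WT, 127 and 244 in siblings, then 266 and 105 in DM (−2.10 ± 0.45, DESeq2 adjusted p = 0.00835). Of 30 tested hyaluronan, versican and link protein genes, has2 and lyve1a were called. In the lower direction 3 were apart by 2-fold (10%), and in the higher direction 1 (3.33%), and the median was near 0. The groups overlapped for the link protein genes hapln1a (3024 and 1688 counts in WT, 3631 and 3339 in DM) and hapln1b (589 and 215 in WT, 335 and 297 in DM) and for the versican gene vcana (4054 and 2080 in WT, 1712 and 2181 in DM).

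Of 41 endocardium and valve genes, has2 was the single call, and 7 were apart by 2-fold in the lower (17.1%) and 1 in the higher direction (2.44%). Their median was −0.50 (−0.09 without WT replicate 1, −0.87 without DM replicate 3). klf2b, which responds to blood flow, had 1320 and 606 counts in WT, 203 and 779 in siblings, then 262 and 339 in DM (DESeq2 adjusted p = 0.225). Among 48 vascular endothelial genes 8 were apart by 2-fold, all lower (16.7%), and the median was −0.54 (−0.13 without WT replicate 1, −0.81 without WT replicate 3). The call there was aqp8a.1, an aquaporin gene of endothelial cells, with 280 and 124 counts in WT, 50 and 119 in siblings, then 43 and 7 in DM (−3.21 ± 0.77, adjusted p = 0.00858 by DESeq2). cdh5, the adherens junction cadherin of endothelium, had 8984 and 4473 counts in WT, 1666 and 4506 in siblings, then 2516 and 3037 in DM (DESeq2 adjusted p = 0.335). The summed endothelial and endocardial markers were at 0.267% and 0.150% of raw counts in WT and 0.110% and 0.163% in DM, so their ranges overlapped. These raw shares do not include the TMM factors that the list medians include. The part of cell numbers in these differences was not tested.

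fabp11a (ENSDARG00000017299, chromosome 19, 32579389 to 32581848) encodes a fatty acid binding protein, and its transcripts stood at 1139 ± 423 CPM in WT and 109 ± 61 CPM in DM. It had 7274 and 3882 counts in WT, 2091 and 2638 in siblings, then 922 and 287 in DM (log2 fold change −3.39 ± 0.55, DESeq2 adjusted p = 3.25e-07), and both sibling libraries lay between the groups. TGFBR2, the type II receptor of TGF-beta, had 292 and 293 counts in WT, 41 and 82 in siblings, then 58 and 60 in DM (−2.38 ± 0.43, DESeq2 adjusted p = 0.00142), so siblings were about as low as mutants. bmper, which encodes a secreted BMP-binding modulator, had 154 and 78 counts in WT, 59 and 78 in siblings, then 20 and 21 in DM (−2.55 ± 0.51, DESeq2 adjusted p = 0.00932). Of the 65 TGF-beta, activin and BMP genes on the list, which holds neither TGFBR2 nor bmper nor the BMP10 gene of chromosome 10, none was called. On that list 6 were apart by 2-fold in the lower (9.23%) and 3 in the higher direction (4.62%). Its median of −0.38 was −0.024 without WT replicate 1. inhbaa, an activin subunit gene, had 104 and 28 counts in WT, 129 and 156 in siblings, then 13 and 11 in DM (−2.51 ± 0.65), just short of a call (DESeq2 adjusted p = 0.0596), and siblings were above WT. For fsta, the activin antagonist follistatin, the groups overlapped (34 and 105 counts in WT, 31 and 64 in DM).

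In the Wnt pathway, rspo2 (ENSDARG00000079570, chromosome 16, 38504338 to 38604289), a secreted R-spondin that raises Wnt signalling at the receptor, had 575 and 412 counts in WT, 118 and 543 in siblings, then 58 and 31 in DM. Its mean level was 101 ± 17 CPM in WT and 8.32 ± 1.7 CPM in DM (log2 fold change −3.60 ± 0.65, DESeq2 adjusted p = 3.43e-05). Its paralog rspo3 had 59 and 24 counts in WT, 28 and 43 in siblings, then 18 and 7 in DM, lower in both DM libraries without a call (DESeq2 adjusted p = 0.355). Of 62 Wnt pathway genes rspo2 was the single call, and 9 were apart by 2-fold in the lower (14.5%) and 1 in the higher direction (1.61%). Their median was −0.40 (−0.70 without DM replicate 3). The secreted inhibitors wif1 and sfrp1a, named because their groups did not overlap, were lower in DM without a call (DESeq2 adjusted p = 0.0733 and 0.188). wif1 had 218 and 80 counts in WT, 60 and 67 in siblings, then 43 and 32 in DM. sfrp1a had 75 and 62 in WT, 91 and 84 in siblings, then 19 and 25 in DM. Other secreted inhibitors on the list are not described here. In the Notch pathway 3 of 52 genes were apart by 2-fold in the higher (5.77%) and 2 in the lower direction (3.85%), near the shares of all genes. None was called, and the median was −0.02, between −0.45 and 0.38 with any library left out. Of 29 retinoic acid genes none was called, and 3 were apart by 2-fold in the lower (10.3%) and 1 in the higher direction (3.45%).

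Collagens and other matrix genes were mostly on the lower side. Of 43 tested collagen genes 3 were called lower, and 9 were apart by 2-fold, all lower (20.9%). Their median was −0.53 (−0.29 without WT replicate 1, −0.85 without DM replicate 1). col6a1 and col6a2, which encode chains of the beaded microfibril collagen VI, had 577 and 222 counts and 374 and 225 counts in WT against 91 and 61 and 52 and 50 in DM (DESeq2 adjusted p = 0.0188 and 0.00721). Sibling counts were within or near the WT range for both, at 399 and 195 for col6a1 and 351 and 165 for col6a2. col12a1a, a fibril-associated collagen gene, had 268 and 210 counts in WT, 254 and 283 in siblings, then 66 and 68 in DM (−1.90 ± 0.39, DESeq2 adjusted p = 0.00858), with siblings again at the WT level. cspg4, a proteoglycan gene known from pericytes in mammals, had 192 and 142 counts in WT, 173 and 132 in siblings, then 35 and 27 in DM (−2.52 ± 0.44, DESeq2 adjusted p = 0.00142). Of 130 other matrix, protease and integrin genes 12 were apart by 2-fold in the lower (9.23%) and 2 in the higher direction (1.54%). The call was adamts1, a secreted metalloprotease gene, with 368 and 361 counts in WT, 103 and 124 in siblings, then 142 and 130 in DM. In CPM, siblings (28.82 and 26.9) were at the DM level (23.35 and 29.78).

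The transcription factors that mark epicardium had few counts in all heart libraries. Both DM libraries were below both WT libraries for tcf21 (37 and 8 counts in WT, 29 and 20 in siblings, 6 and 4 in DM), tbx18 (18 and 24, 34 and 6, then 11 and 6) and wt1a (19 and 9, 39 and 8, then 1 and 8). All 3 are markers of the proepicardium too. For wt1a, WT replicate 3 and DM replicate 3 were nearly equal. wt1b had 26 and 12 counts in WT, 12 and 12 in siblings, then 7 and 8 in DM, and aldh1a2, the retinoic acid synthase of epicardium and endocardium, 311 and 106, 104 and 145, then 33 and 69. Both DM libraries were the lower ones for these genes as well. Of all genes tested, 18.1% were lower in DM without overlap. None of the 5 was called, and the adjusted p of aldh1a2 was 0.167 by DESeq2. jam2b, a junctional adhesion gene of mesothelial and epicardial cells in zebrafish, was called, with 128 and 104 counts in WT, 91 and 71 in siblings, then 14 and 13 in DM (log2 fold change −3.17 ± 0.49, DESeq2 adjusted p = 0.000196). BNC1, a zinc finger gene of mesothelium and other epithelia in mammals, had 140 and 74 counts in WT, 162 and 162 in siblings, then 10 and 17 in DM (−2.99 ± 0.58, DESeq2 adjusted p = 0.00191). krt18, a keratin of simple epithelia, had 1276 and 666 counts in WT, 544 and 375 in siblings, then 283 and 275 in DM (DESeq2 adjusted p = 0.042). Of the 43 proepicardial and epicardial genes, jam2b and krt18 were called lower. In the lower direction 8 were apart by 2-fold (18.6%), and in the higher direction 1 (2.33%). The median was −0.42 (−0.05 without WT replicate 1, −0.83 without WT replicate 3). jam2b and BNC1 were each called in 2 of the 4 fits that left out a library. sox9b, a transcription factor of valve and neural crest tissue, had 125 and 639 counts in WT, 195 and 185 in siblings, then 99 and 94 in DM, so the difference rested on WT replicate 3 (DESeq2 adjusted p = 0.167).

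A few genes of trunk position and of foregut tissue were called lower in DM, and their sibling libraries were nearer WT. hoxb8a (ENSDARG00000056027, chromosome 3, 23557361 to 23559933), a homeobox gene that marks trunk levels of the body axis, had 454 and 201 counts in WT, 294 and 436 in siblings, then 38 and 9 in DM. Its mean level was 66.6 ± 33 CPM in WT and 4.16 ± 3.0 CPM in DM (log2 fold change −3.97 ± 0.65, DESeq2 adjusted p = 1.02e-06). hoxc1a, a more anterior Hox gene, had 274 and 164 counts in WT, 244 and 300 in siblings, then 69 and 33 in DM (−2.24 ± 0.43, DESeq2 adjusted p = 0.00254). These were the 2 calls among 32 tested Hox genes, of which 6 were apart by 2-fold, all lower (18.75%). The median of the list was −0.59 and ranged from −1.95 to −0.08 when a library was left out. hoxc8a, with 253 and 69 counts in WT, 171 and 275 in siblings, then 50 and 3 in DM, was not called (DESeq2 adjusted p = 0.106).

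foxf1 and foxf2a encode forkhead factors of visceral and pharyngeal mesoderm. foxf1 had 114 and 30 counts in WT, 139 and 183 in siblings, then 12 and 4 in DM (log2 fold change −3.27 ± 0.73, DESeq2 adjusted p = 0.00946). foxf2a had 256 and 19 counts in WT, 416 and 158 in siblings, then 11 and 11 in DM (−3.66 ± 1.19, DESeq2 adjusted p = 0.0401), and here WT replicate 3 was close to the DM libraries. nkx3.3, a homeobox gene of pharyngeal and gut mesenchyme, had 61 and 20 counts in WT, 88 and 56 in siblings, then 2 and 0 in DM, a WT to DM ratio of 43.8 (95% counting interval 11.7 to 368). foxa3, a forkhead factor of the gut and liver endoderm, had 134 and 120 counts in WT, 176 and 178 in siblings, then 31 and 33 in DM (−2.05 ± 0.42, DESeq2 adjusted p = 0.0123). Of 45 tested foregut endoderm and mesenchyme genes 4 were called lower and none higher. In the lower direction 6 were apart by 2-fold (13.3%), and in the higher direction 1 (2.22%). The median was −0.35 (−0.16 without WT replicate 1, −0.73 without DM replicate 3). The pharyngeal markers are no separate measure here, since foxf1, foxf2a and nkx3.3 are counted among them. The marker set took at least 0.00217% of the counts in every WT and sibling library and less than 0.001% in both DM libraries. Its level without the called genes was not computed. How much neighbouring tissue came along with each dissected heart was not tested.

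A set of 4 red cell genes was called lower in DM, with siblings nearer DM than WT. slc4a1a, the band 3 anion exchanger of the red cell membrane, had 3888 and 3427 counts in WT, 862 and 1178 in siblings, then 1138 and 887 in DM. Its mean level was 755 ± 20 CPM in WT and 195 ± 11 CPM in DM (log2 fold change −1.95 ± 0.34, DESeq2 adjusted p = 2e-05). cahz, the red cell carbonic anhydrase, had 3157 and 2293 counts in WT, 684 and 819 in siblings, then 1134 and 875 in DM (DESeq2 adjusted p = 0.00793). Also called were tfr1a, a transferrin receptor for iron uptake (963 and 799 in WT, 341 and 303 in DM), and rhd, a Rhesus family membrane gene (331 and 279 in WT, 108 and 79 in DM). The median of 53 erythroid and globin genes was −0.60, between −0.75 and −0.49 with any library left out. Of these 4 were called lower, and 14 were apart by 2-fold in the lower (26.4%) and 1 in the higher direction (1.89%). The 1 higher member was rhag, a partner of the Rhesus proteins that conducts ammonia. It had 1388 and 1034 counts in WT, 611 and 798 in siblings, then 3286 and 3867 in DM (1.52 ± 0.39), and narrowly missed the threshold (DESeq2 adjusted p = 0.058). Without the 2-fold limit, 3 members were higher and 30 lower without overlap, where 20.6% and 18.1% of all genes tested were. Positive fold changes were found in 9 of the 53. The 9 erythroid markers accounted for 0.207% and 0.197% of WT counts, with 0.0727% and 0.0831% in siblings, then 0.122% and 0.131% in DM, and how much blood each library held was not tested.

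Among the 49 genes called higher in DM, keratin genes of skin had the smallest adjusted p-values. krtt1c19e (ENSDARG00000090268, chromosome 19, 5422878 to 5429446), a type I keratin gene of basal epidermis, had 36 and 36 counts in WT, 80 and 150 in siblings, then 548 and 391 in DM. Its mean level was 7.45 ± 0.47 CPM in WT and 89.8 ± 0.38 CPM in DM (log2 fold change 3.59 ± 0.41, DESeq2 adjusted p = 3.43e-10). cyt1 (ENSDARG00000092947, chromosome 19, 5445934 to 5464258), a further type I cytokeratin gene, had 198 and 251 counts in WT, 1263 and 794 in siblings, then 2344 and 1700 in DM (3.05 ± 0.47, DESeq2 adjusted p = 1.73e-06). krt5, a type II keratin gene, had 79 and 157 counts in WT, 288 and 425 in siblings, then 869 and 692 in DM (2.60 ± 0.46, DESeq2 adjusted p = 0.000291). Siblings lay between WT and DM for all 3. cyt1l, whose annotated span overlaps that of cyt1, had 115 and 195 counts in WT, 775 and 439 in siblings, then 776 and 1144 in DM. How reads in the overlap were assigned is not given in the sources used here. Of 54 tested skin and keratin genes 4 were called higher and 1 lower (krt18). In the higher direction 12 were apart by 2-fold (22.2%), and in the lower direction 7 (13%). The median was 1.02 (0.53 without DM replicate 1). The lower members included and1 and and3, actinodin genes of the fin fold, with 204 and 457 counts and 36 and 233 counts in WT against 71 and 14 and 27 and 2 in DM, neither called (DESeq2 adjusted p = 0.0666 and 0.0778). The summed skin markers, krt5 and cyt1 among them, were higher in both DM and both sibling libraries than in both WT libraries, and the part of attached skin in the keratin differences was not tested.

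Some genes known from eggs and early embryos were called higher in DM. pou5f3, the zebrafish relative of the pluripotency factor Oct4, had 108 and 131 counts in WT, 161 and 1005 in siblings, then 1394 and 684 in DM (log2 fold change 2.96 ± 0.73, DESeq2 adjusted p = 0.00946). ca15b, a carbonic anhydrase gene of primordial germ cells and oocytes, had 75 and 96 counts in WT, 32 and 561 in siblings, then 1781 and 422 in DM (3.45 ± 1.12, DESeq2 adjusted p = 0.0426). In both, sibling replicate 3 was within or near the DM range and sibling replicate 1 near WT. gtf3ab, a relative of transcription factor IIIA, had 13 and 6 counts in WT, 9 and 133 in siblings, then 260 and 95 in DM (4.04 ± 1.1, DESeq2 adjusted p = 0.0168). Of 21 tested germline genes ca15b was the single call, but 13 were apart by 2-fold, all higher (61.9%). A positive fold change was found in 20 of them, and in 8683 of all 16998 genes tested. The list held 39 genes, and those at 0 counts numbered 10 and 11 in WT, then 3 and 3 in DM. A gene low in WT could enter the test, or reach a mean of 5 CPM, through the DM libraries alone. The filters can therefore raise these shares, which do not describe the untested members. The median of the tested members, 2.56, stayed between 1.83 and 2.89 with any library left out. ddx4, the vasa RNA helicase gene of germ cells, had 11 and 25 counts in WT, 21 and 127 in siblings, then 202 and 65 in DM, and dazl, an RNA-binding protein gene of germ cells, 93 and 58, 28 and 260, then 1073 and 185 (DESeq2 adjusted p = 0.135 and 0.112). The summed germline list stood at 554 and 440 CPM in WT, 572 and 959 in siblings, then 1596 and 747 in DM, so sibling replicate 3 lay between the DM libraries.

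**Figure D4:**
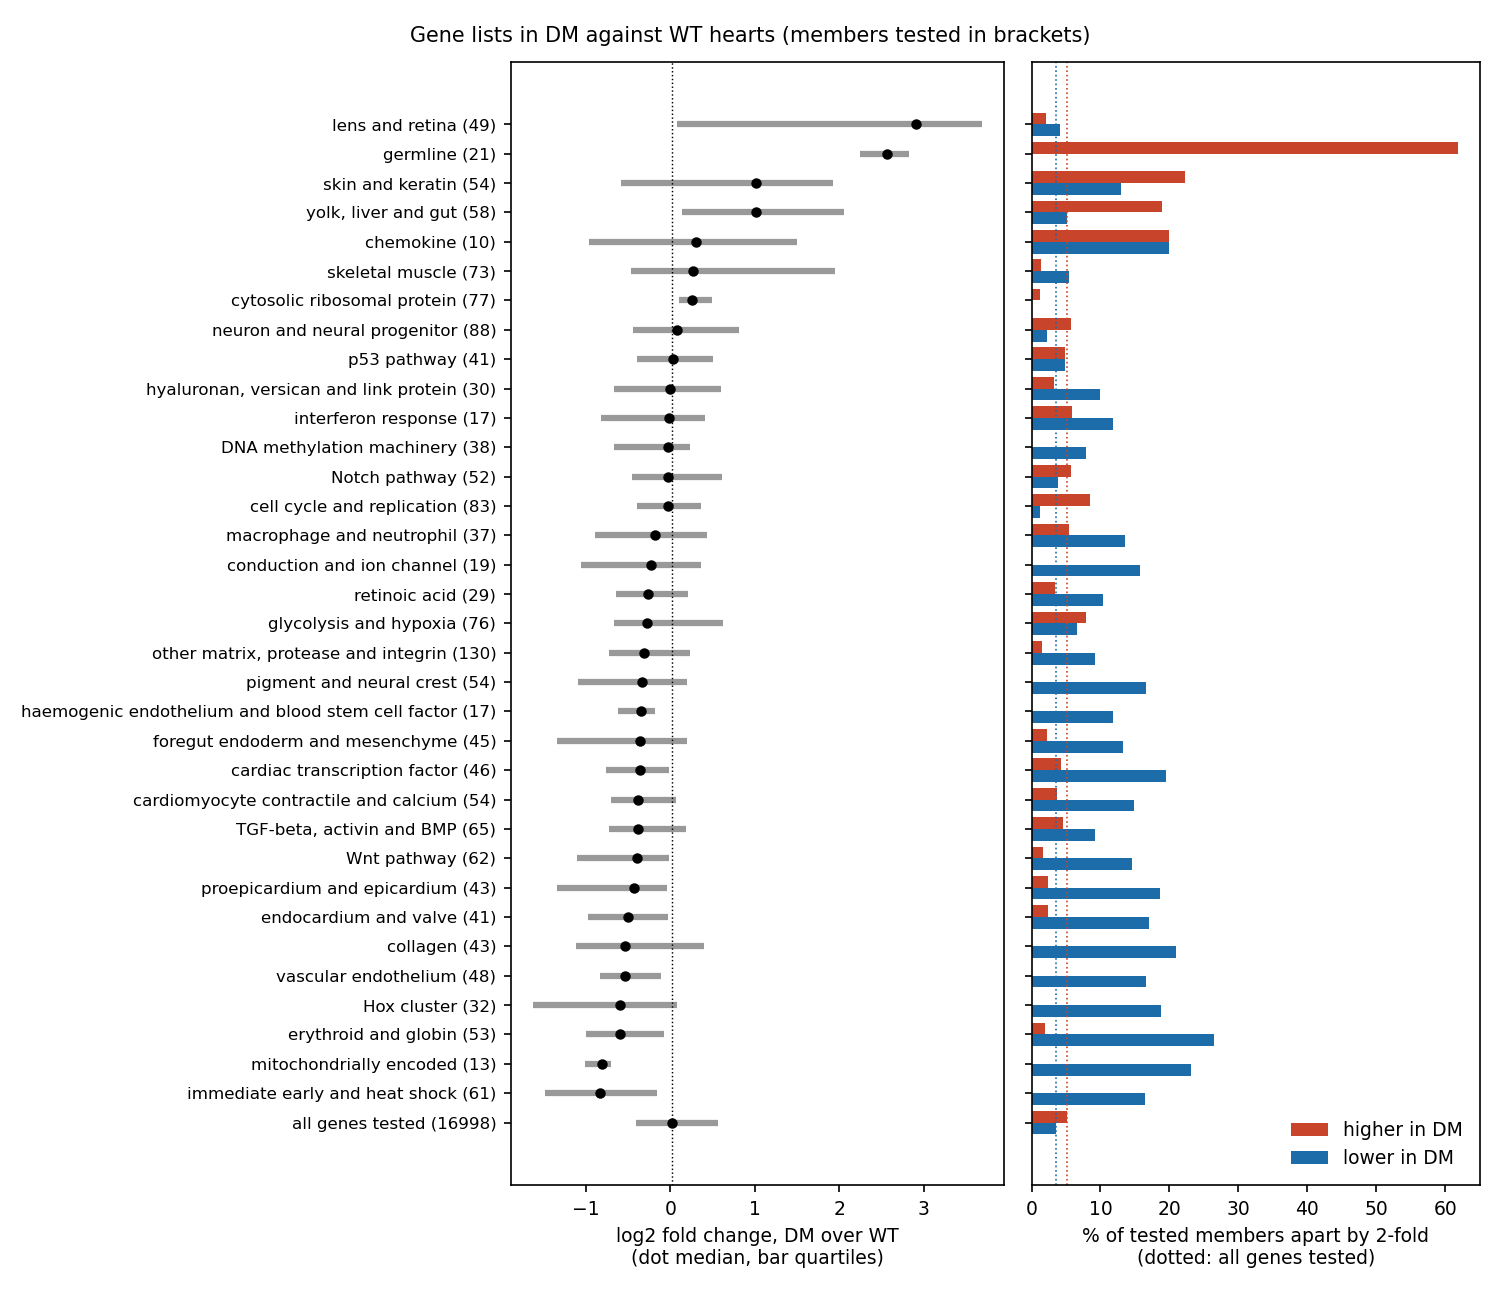
Left, the median log2 fold change (dot) and quartiles (bar) of the tested members of 34 gene lists and of all genes tested. Right, the percent of tested members apart by 2-fold in each direction, with dotted lines at 5.18% (higher) and 3.49% (lower) for all genes. The germline list stands at 61.9% higher and the erythroid list at 26.4% lower. Genes low in WT could pass the filters through the DM libraries alone, which can raise the higher shares.

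The hatching enzyme genes he1a and he1b were called higher in DM, with large differences between replicates. They encode choriolysins of the hatching gland and had 111 and 56 counts and 54 and 21 counts in WT against 520 and 1757 and 244 and 679 in DM (DESeq2 adjusted p = 0.014 and 0.0259). Their sibling counts were 1685 and 237 and 806 and 112, so sibling replicate 1 was as high as DM replicate 3. The annotated spans of both genes overlap by 1387 bases, and how reads there were assigned is not given in the sources used here. ctslb.4, a cathepsin L family gene, was likewise highest in sibling replicate 1 and DM replicate 3, with 3 and 7 counts in WT, 158 and 30 in siblings, then 54 and 187 in DM (log2 fold change 4.59 ± 1.23, DESeq2 adjusted p = 0.00906).

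slc18a2, which encodes the vesicular transporter that loads monoamines into secretory vesicles, was higher in DM than in every control heart. It had 2 and 11 counts in WT, 4 and 5 in siblings, then 117 and 193 in DM, that is 1.39 ± 1.4 CPM in WT and 31.7 ± 18 CPM in DM (log2 fold change 4.5 ± 0.86, DESeq2 adjusted p = 0.000433). It was the single call among 88 tested neuron and neural progenitor genes, whose median was 0.08 (−0.61 without WT replicate 1, 2.1 without WT replicate 3). On that list 5 were apart by 2-fold in the higher (5.68%) and 2 in the lower direction (2.27%). The neuron markers accounted for 0.0281% and 0.30% of WT counts and 0.188% and 0.117% in DM, so WT replicate 3 held the highest share. nos1, the neuronal nitric oxide synthase gene, had 12 and 25 counts in WT, 125 and 83 in siblings, then 127 and 157 in DM (2.87 ± 0.62, DESeq2 adjusted p = 0.0104), with siblings at the DM level.

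Immediate early genes, which respond within minutes to stimuli, and heat shock genes had the lowest median of the 34 lists, −0.83 over 61 tested members. Of these 10 were apart by 2-fold, all lower (16.4%), but without WT replicate 3 the median was 0.05. egr3, an early growth response transcription factor gene, was the call, with 404 and 536 counts in WT, 135 and 443 in siblings, then 93 and 43 in DM (log2 fold change −2.95 ± 0.57, DESeq2 adjusted p = 0.000433, called in 3 of the 4 leave-one-out fits). Among chromatin and DNA methylation genes, zbtb4, a relative of the methyl-CpG binding zinc finger protein Kaiso, had 1724 and 1216 counts in WT, 236 and 684 in siblings, then 387 and 228 in DM (−2.38 ± 0.47, DESeq2 adjusted p = 0.0015). It was the call among 38 tested genes of the DNA methylation machinery, whose median was −0.02 and of which 3 were apart by 2-fold, all lower (7.9%). chd9, a chromodomain remodeller gene, had 2294 and 3232 counts in WT, 1484 and 1588 in siblings, then 899 and 889 in DM (DESeq2 adjusted p = 0.0131).

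Among lists of basic cell functions, some had medians near that of all genes. Over 83 cell cycle and replication genes the median was −0.02, with 7 apart by 2-fold in the higher (8.43%) and 1 in the lower direction (1.2%). Over 41 p53 pathway genes it was 0.03, with 2 in each direction (4.88% each), near the shares of all genes. None of these was called. The 77 cytosolic ribosomal protein genes had a median of 0.26, between 0.08 and 0.55 with any library left out. Of these 67 had a positive fold change, as 8683 of all 16998 genes tested had, and 1 was apart by 2-fold (1.3%). The 13 mitochondrially encoded genes had the second lowest median of the lists, −0.81, between −1.15 and −0.54 with any library left out. None was called, and 3 were apart by 2-fold, all lower (23.1%). Groups did not overlap for 11, all lower, where 18.1% of all genes tested were lower without overlap. Sibling replicate 1 was nearer DM than WT for 12 of the 13, and sibling replicate 3 for 0. Their summed level was 63330 and 89570 CPM in WT, 39170 and 85760 in siblings, then 34900 and 51980 in DM. Yolk, liver and gut genes had a median of 1.02 over 58 members (0.35 without DM replicate 1), none called. In the higher direction 11 were apart by 2-fold (19%), and in the lower direction 3 (5.17%). As for the germline list, members low in WT could pass the filters through the DM libraries alone, which can raise the higher share and the median. Yolk and liver markers were lower in both WT libraries (0.0255% and 0.0482%) than in both DM libraries (0.100% and 0.112%). Sibling libraries, at 0.232% and 0.109%, were also above both WT libraries. The median of 2.91 over 49 lens and retina genes came from DM replicate 1, since it was −2.18 without that library.

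The sibling hearts are set beside the calls next. Of the 69 genes called lower in DM, 40 had both sibling libraries nearer WT than DM on the log2 CPM scale, 14 had 1 and 15 had none. Of the 49 called higher, 2 had both nearer WT, 16 had 1 and 31 had none. Among genes apart by 2-fold, both sibling libraries were nearer WT in 177 of 594 lower and 85 of 880 higher genes, and both nearer DM in 174 of 594 lower and 254 of 880 higher genes. These are counts of genes, and no difference between the directions was tested. The sibling libraries were part of the fit that made the calls, so genes on which they disagreed could be called less readily. The counts among the calls are thus no independent measure of the siblings. Sibling replicate 1 had the lowest share of cardiomyocyte markers (1.41%), and the part of this in the sibling levels was not tested. Among the genes above that were called lower, hoxb8a, hoxc1a, foxf1, foxa3, jam2b, BNC1 and col12a1a had both sibling libraries nearer WT, while slc4a1a, cahz, TGFBR2, xirp2a and lyve1a had both nearer DM. The AB and TU cross is stated for WT embryos and not for the mutant line, so line and genotype cannot be told apart in the comparison with WT.

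**Figure D5:**
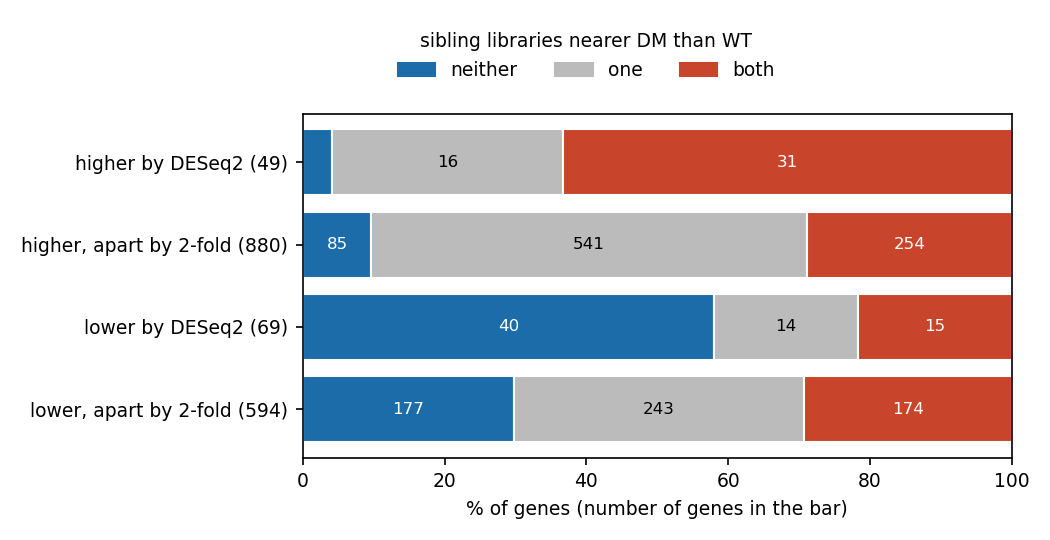
For genes that differ between DM and WT hearts, the percent (x axis) with neither, one or both sibling libraries nearer DM than WT, with numbers of genes in the bars. Both sibling libraries were nearer DM in 31 of 49 genes called higher and in 15 of 69 called lower. The sibling libraries were part of the fit that made these calls.

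Genes around the mutated loci were counted separately. Within 5 Mb on either side of tet2, 7 of 122 tested genes were apart by 2-fold and none was called. Around tet3, 5 of 92 were apart by 2-fold and 2 were called, nos1 and atp8b5a. The shares apart by 2-fold, 5.74% and 5.43%, were below the 8.67% of all genes tested. The 2.17% called around tet3, beside 0.787% of all genes, rested on these 2 genes, and no excess was tested.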

How the data were processed

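The deposited table of the WT and DM hearts held raw counts per gene made by the authors, beside their log2 fold change and p-value with its adjusted p-value, per the file headers. Sibling heart counts came from the authors' deposited table of siblings against WT. The authors' log2 values are WT over DM, with the sign turned for this text. Per the submitters' processing notes, which give no roles, the tools were HTSeq 0.6.0 and STAR 2.3.0e and the build GRCz10, and 8 columns of normalised values were not used. Coordinates come from the deposited tables, and 1592 symbols were taken from a gene name table. Promoter and protein sequences were not used here.

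Counts were filtered with filterByExpr, normalised by TMM and tested with edgeR 4.0.16 (quasi-likelihood, Benjamini-Hochberg, FDR 0.05) in R 4.3.3, with the 6 heart libraries sharing an estimate of spread. The TMM factors were 0.850 and 0.900 in WT, 1.09 and 1.03 in siblings, then 1.13 and 1.03 in DM. CPM values include these factors, while marker shares are percents of raw counts. Log2 CPM used a prior count of 2. Each SE was derived from the fold change and its F statistic (the size of the change over √F). Alternatives were DESeq2 1.42.0, limma 3.58.1 (voom), other size factors, filters and thresholds, removal of a trend with gene span, the replicate number as a block, and each library left out. The tests were tried on simulated data. Exact intervals of count ratios and the limit of 3 counts cover counting error only. The count depth of 3289161 to 5963478 per library limits what low genes can show.

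Groups followed the labels. Members, gene lists (34, with 1977 of 2111 symbols found) and tests were chosen with earlier results of these data known. Named genes were tet1, tet2, tet3, the top non-overlapping genes by edgeR p and by DESeq2 (mean CPM of at least 5), up to 5 members per list and direction, and the defining epicardial, hyaluronan and activin genes. BNC1, bmp10, bmper, chd9, dazl, kdm6bb, atp8b5a, nos1, nppa, pou5f3, ptn and rspo3 were chosen after their values were seen.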

Additional observations from a re-analysis of the deposited data

How the results depend on the processing

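The count of 0 genes by edgeR was the same with limma-voom, DESeq2 size factors, upper quartile factors, the 4 WT and DM libraries only, removal of the span trend, an FDR of 0.01 and each library left out, with 507 to 1374 genes at an unadjusted p below 0.05 in the latter. It was 3 without a filter on low counts and 118 with DESeq2. The number of genes apart by 2-fold was 1474, and 2360 with a minimum of 1 CPM; it ranged from 1472 (720 higher, 752 lower, without DM replicate 1) to 3002 with a library left out, and 910 to 1290 of the 1474 were kept. Other scalings moved the share of higher genes by under 10 points. In fits chosen after the data were seen, DESeq2 called 241 genes in the 4 WT and DM libraries only (146 higher, 95 lower, 107 shared) and 93 without independent filtering (37 higher, 56 lower). Leaving out a library gave 29 (8 higher, 21 lower, without WT replicate 1), 130 (69 and 61, WT replicate 3), 31 (12 and 19, DM replicate 1) and 51 (38 and 13, DM replicate 3) calls, with 14, 52, 20 and 17 of the 118 among them. The cause was not tested.

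The equal replicate numbers were not used as pairs in the main fit, and the labels state no shared clutch. Deviations from the group means of replicates 1 correlated across genes at −0.0283 for WT and DM. For WT and siblings the value was −0.25, and for siblings and DM 0.30. These values do not show whether libraries of equal number were paired. With the replicate block edgeR called 0 genes and DESeq2 138 (80 higher, 58 lower), of which 79 were shared. With a library left out the medians of 14 of 34 lists changed sign, among them those of cardiomyocyte genes (0.22 without WT replicate 1), pigment and neural crest genes (0.29 without WT replicate 3) and skeletal muscle genes (−1.02 without DM replicate 1). With a library left out, log2 fold changes of genes whose groups overlapped ranged from −0.17 to 0.071 (tet3), −1.15 to 0.15 (bmp10), −0.91 to 0.40 (hapln1b), −0.30 to 0.35 (nppa) and −1.54 to 0.56 (fsta). Of 763 values of 85 named genes under the alternatives these 5 genes gave the 7 that changed sign, and 56 passed the threshold, all with DESeq2. Most of the other named genes were chosen for groups that did not overlap. Leaving out a library could hardly change their sign, so the number of sign changes is no measure of stability. Depth limits genes with few counts, such as the epicardial factors and nkx3.3.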

Other observations

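Further lists from outside the heart are given beside the shares of all genes tested that were apart by 2-fold, 5.18% higher and 3.49% lower. Of 54 pigment and neural crest genes 9 were apart by 2-fold, all lower in DM (16.7%), and 2 were called lower by DESeq2, prdm1a and tyrp1a. tyrp1a, an enzyme gene of melanin synthesis, had 85 and 136 counts in WT, 16 and 6 in siblings, then 24 and 6 in DM (log2 fold change −3.08 ± 0.79, DESeq2 adjusted p = 0.0316), so siblings were as low as mutants. Of 76 glycolysis and hypoxia genes 6 were apart by 2-fold in the higher (7.9%) and 5 in the lower direction (6.58%). ndrg1a, which responds to hypoxia, was called higher (DESeq2 adjusted p = 0.0175). It had 564 and 507 counts in WT, 1026 and 1465 in siblings, then 1759 and 1375 in DM. In CPM, siblings (287.1 and 317.8) were at the DM level (289.3 and 315). Of 37 macrophage and neutrophil genes 5 were apart by 2-fold in the lower (13.5%) and 2 in the higher direction (5.41%), and none was called by DESeq2.

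ptn, which encodes the secreted growth factor pleiotrophin, was lower in DM, with 323 and 371 counts in WT, 142 and 232 in siblings, then 131 and 56 in DM (log2 fold change −2.06 ± 0.42, DESeq2 adjusted p = 0.00584). sema3gb, a secreted semaphorin guidance gene, had 242 and 161 counts in WT, 93 and 145 in siblings, then 51 and 38 in DM (−2.27 ± 0.40, DESeq2 adjusted p = 0.00171). Of 17 haemogenic endothelium and blood stem cell factors, cbfb, the partner subunit of Runx factors, was called lower, with 908 and 531 counts in WT, 366 and 448 in siblings, then 216 and 242 in DM (−1.70 ± 0.40, DESeq2 adjusted p = 0.0316).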
